A study of Mus musculus with 6 samples.

Results

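G-protein coupled receptors and RGS genes were followed in hematopoietic stem cell-enriched bone marrow of mice labelled as lacking Zeb2. Members were all genes with a probe set of exactly 1 gene symbol that begins with Adgr, with Gpr and a digit, with P2rx or P2ry, with Ptger, S1pr, Adra or Adrb, or with Rgs and a digit, without Adgrl2. This gave 74 genes of 10366 genes with such a probe set on the array, and 76 probe sets, of which the brighter 1 was kept for Gpr31b and P2rx3. The RefSeq gene table holds 162 symbols of this form, and symbols that no such probe set carries, such as P2ry12 and Rgs1, were not analysed here.

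The arrays labelled Zeb2-KO came from Zeb2 fl/fl Mx1-Cre mice, whose genotype is given as Zeb2Δ/ΔMx1-Cre, and the WT arrays from C57Bl/6 WT mice, with 3 arrays in each group and 1 bone marrow sample per array. All mice were given pIC, which induces interferon, when 6 weeks old, and were killed 8 weeks after it, aged 14 weeks. Mx1-Cre is driven by an interferon-inducible promoter, so it acts in many interferon-responsive cells and not in stem cells alone, and the WT mice are not described as carrying Cre or floxed alleles. LKS-Slam cells were sorted, a gate for lineage-negative, Kit-positive, Sca-1-positive cells with SLAM markers. Array values are RMA intensities per probe set, taken here as log2, and differences are log2 values of Zeb2-KO minus WT.

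G-protein coupled receptors sit in the cell membrane and pass the binding of a ligand to heterotrimeric G proteins, which then act on cyclic AMP, calcium or small GTPases. RGS proteins speed up GTP hydrolysis by the G protein alpha subunit and so end the signal. In bone marrow such receptors are known for steering stem and progenitor cells between niche and blood and for sensing nucleotides, prostaglandins and sphingosine 1-phosphate. The P2X members of the list are ATP-gated ion channels and not G-protein coupled receptors, and Gpr89 encodes a Golgi channel protein despite its name.

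Zeb2 itself read 7.79, 9.13 and 8.96 in arrays with the Zeb2-KO label and 6.58, 7.51 and 7.34 in WT arrays, a difference of 1.48 (SE 0.40, limma adjusted p = 0.581). Its signal was therefore no lower where the label says knockout. Which exons were deleted is not given in the sources used here, and a probe set outside them would not check the deletion. Every direction below is that of the labels. Of the gate's genes, Kit read 10.14, 10.17 and 10.23 in Zeb2-KO arrays and 9.0, 10.06 and 9.89 in WT arrays, and Slamf1, which encodes the SLAM antigen, read 8.31, 9.01 and 8.30 in Zeb2-KO arrays and 5.76, 8.02 and 7.94 in WT arrays. WT replicate 1 was the lowest array for both genes, and its mean correlation with the other arrays was 0.841, against 0.886 to 0.908 for the rest.

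No member passed an adjusted p of 0.05, where 2 of 14610 tested probe sets did (0.0137%). At an unadjusted p under 0.05, P2ry14 and Adgrg1 lay higher in Zeb2-KO (2 of 74 members, where 5.69% of all probe sets lay higher) and S1pr1 lay lower (1 of 74, where 1.33% of all lay lower). These shares, 2.70% and 1.35%, lay below and close to those of the whole array. In number, 57 of 74 members (77.0%) had a difference below 0, where 55.4% of all probe sets did, and the median difference was -0.28 over the members and -0.089 over all probe sets. The median was -0.038 over the members and -0.0067 over all probe sets once the spread of each array, its interquartile range, was put in the fit as a covariate.

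The 250 bases before the start are shown for P2ry14 and Adgrg1, the 2 members that lay higher at an unadjusted p under 0.05, because Zeb2 is known as a repressor that binds paired CACCT motifs. Sequences are those of RefSeq on GRCm38.p6, 5′ to 3′ on the gene's strand, from the most upstream start in the table, and capitals mark CACCT or its reverse complement AGGTG.
P2ry14, chr3:59153493-59153742, minus strand: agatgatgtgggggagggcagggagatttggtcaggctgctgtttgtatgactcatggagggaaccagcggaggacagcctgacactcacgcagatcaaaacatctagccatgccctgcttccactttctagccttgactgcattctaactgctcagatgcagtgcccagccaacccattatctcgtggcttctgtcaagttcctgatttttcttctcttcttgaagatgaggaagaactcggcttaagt
Adgrg1, chr8:94976859-94977108, plus strand: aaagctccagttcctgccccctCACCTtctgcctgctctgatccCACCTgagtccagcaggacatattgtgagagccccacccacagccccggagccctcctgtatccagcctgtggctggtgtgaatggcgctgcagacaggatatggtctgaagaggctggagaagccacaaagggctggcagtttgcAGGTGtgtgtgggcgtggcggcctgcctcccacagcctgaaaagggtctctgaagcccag
The Adgrg1 window held CACCT in 2 places and AGGTG in 1, whereas these letters did not occur in the P2ry14 window. RefSeq lists 4 such windows for P2ry14, of which 2 held the motif, and 2 for Adgrg1, both with it. In total 55 of 74 members had a window, and 26 of their 71 windows (36.6%) held the 5-base motif on either strand, where 46.0% of all 32851 windows did. The longer motif CACCTG or its reverse complement CAGGTG, which overlaps the 5-base motif, occurred in 16.9% of member windows and 17.2% of all windows. No binding was measured in these samples, and a match says only that the letters occur.

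Nucleotide receptors held the member with the smallest p. P2ry14, the receptor for UDP-glucose, known from stem and progenitor cells, read 8.97, 9.31 and 9.40 in Zeb2-KO arrays and 7.62, 8.27 and 8.01 in WT arrays. All 3 Zeb2-KO arrays lay above all 3 WT arrays, with a gap between the groups wider than the range within either. The group means were 9.22 ± 0.22 in Zeb2-KO and 7.97 ± 0.33 in WT (SD, n = 3 each), a difference of 1.26 (SE 0.30, 95% interval 0.60 to 1.91) or 2.39-fold. It did not pass the test over all probe sets (limma adjusted p = 0.536). The difference was 1.06 after quantile normalization and 0.96 with array spread in the fit, and it ran from 1.08 without WT replicate 1 to 1.41 without WT replicate 2.

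P2ry13, an ADP receptor whose gene lies near P2ry14 on chromosome 3, read 7.53, 8.29 and 8.34 in Zeb2-KO arrays and 8.02, 7.18 and 7.82 in WT arrays. The groups overlapped, and the difference was 0.38 (95% interval -0.38 to 1.13). P2ry2, a receptor for ATP and UTP, and P2ry6, a UDP receptor, neighbour each other on chromosome 7 and lay at -0.55 and -0.36. They lay at -0.239 and -0.0157 with array spread in the fit. P2ry10, a lysophosphatidylserine receptor of lymphocytes, lay at -0.27, but at 0.183 without WT replicate 1 and at 0.365 with array spread in the fit. P2ry1, the ADP receptor of platelets, lay at 0.10, but turned to -0.118 when Zeb2-KO replicate 2 was left out and to -0.0312 when WT replicate 2 was. The intervals of these P2Y genes, P2ry14 apart, all include 0.

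Among the 4 ATP-gated channel genes, P2rx1, P2rx2 and P2rx3 lay at -0.45, -0.44 and -0.30 and P2rx4 at 0.47. These differences were -0.32, -0.135, -0.0663 and 0.0143 with array spread in the fit. P2rx1, known from platelets, read 6.62, 6.34 and 6.17 in Zeb2-KO arrays and 7.15, 6.95 and 6.39 in WT arrays, with overlap. P2rx4 read 6.32, 7.13 and 6.40 in Zeb2-KO arrays and 5.91, 6.50 and 6.02 in WT arrays, again with overlap, and its difference was 0.212 without Zeb2-KO replicate 2. The second probe set of P2rx3 gave -0.29, close to the first.

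Of 14 adhesion receptor genes, 5 lay higher and 9 lower, with a median of -0.20. Adgrg1, which encodes GPR56, an adhesion receptor known from hematopoietic stem cells, read 10.08, 9.99 and 9.70 in Zeb2-KO arrays and 8.59, 9.61 and 8.87 in WT arrays. The groups did not overlap, but the lowest Zeb2-KO array and WT replicate 2 lay close together. The means were 9.92 ± 0.20 in Zeb2-KO and 9.02 ± 0.53 in WT (SD, n = 3 each), a difference of 0.90 (SE 0.33, 95% interval 0.18 to 1.63) or 1.87-fold (limma adjusted p = 0.657). The difference was 0.65 with array spread in the fit, 0.684 without WT replicate 1 and 1.20 without WT replicate 2. Adgrg3, which encodes GPR97, known from granulocytes, lies near Adgrg1 on chromosome 8 and read 8.26, 7.07 and 7.95 in Zeb2-KO arrays and 7.11, 7.48 and 7.10 in WT arrays. Zeb2-KO replicate 2 lay below every WT array, and the difference was 0.53 (95% interval -0.24 to 1.30).

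Adgrg7 lay at 0.58, carried by Zeb2-KO replicate 2 at 8.67, and at -0.0843 without it. It lay at -0.59 with array spread in the fit. Adgra3, which encodes GPR125, lay at 0.43, but at 0.0639 with array spread in the fit and at 0.165 without Zeb2-KO replicate 2. Another 3 members known as markers of mature or vessel cells lay lower with overlap. Adgre5, which encodes the leukocyte antigen CD97, lay at -0.28, Adgrl4, known from endothelium, at -0.29 and Adgre1, the macrophage antigen gene, at -0.19. Adgrl4 lay at 0.00866 without WT replicate 2. Adgre1 read 4.52, 3.93 and 4.23 in Zeb2-KO arrays and 4.73, 4.21 and 4.30 in WT arrays, among the dimmest probe sets of the array, and Gpr108, near it on chromosome 17, lay at 0.13. Adgrd2-ps, a pseudogene, was the adhesion member whose Zeb2-KO values all lay below WT (difference -0.35), and Adgrg4 (-0.37), Adgrd1 (-0.31), Adgra1 (-0.27), Adgrf1 (-0.21), Adgrb2 (-0.14) and Adgrg2 (0.088) made up the rest.

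**Figure D1:**
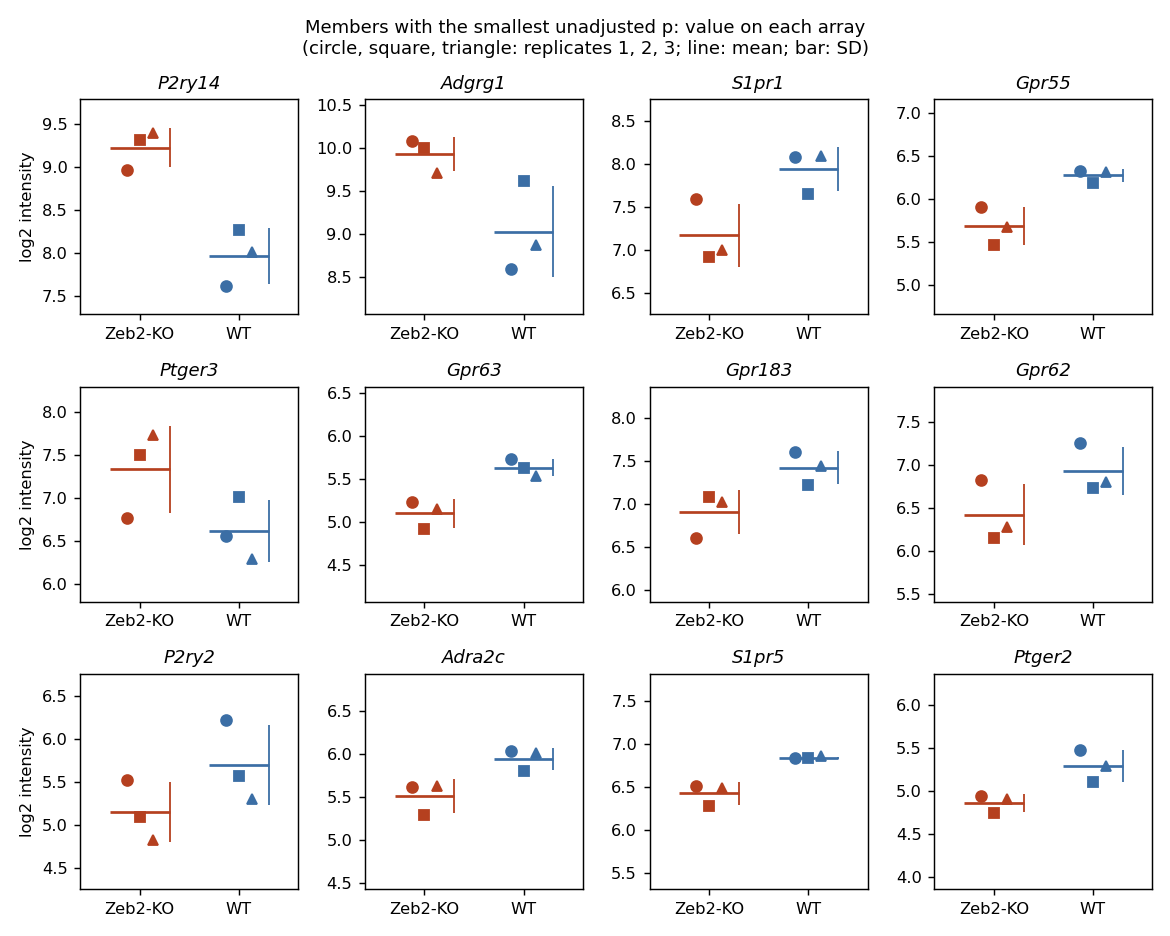
The 12 members with the smallest unadjusted p, as log2 intensity on each array, with Zeb2-KO in red and WT in blue, symbols for replicates 1 to 3, a line for the mean and a bar for the SD; each panel spans the same log2 range. P2ry14 and Adgrg1 lie higher in Zeb2-KO without overlap, S1pr1, Gpr55, Gpr63, Gpr183, Adra2c, S1pr5 and Ptger2 lie lower without overlap, and Ptger3, Gpr62 and P2ry2 overlap.

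The 5 sphingosine 1-phosphate receptor genes lay below 0 in the fit without array spread, and S1pr2 and S1pr3 above 0 in the fit with it. S1P is the lipid that draws lymphocytes and stem cells from tissue into blood and lymph, and S1pr1 encodes the receptor best known for this exit. S1pr1 read 7.59, 6.92 and 7.0 in Zeb2-KO arrays and 8.08, 7.65 and 8.09 in WT arrays. Zeb2-KO replicate 1 came within 0.1 of WT replicate 2, and the groups did not overlap. The means were 7.17 ± 0.37 in Zeb2-KO and 7.94 ± 0.25 in WT (SD, n = 3 each), a difference of -0.77 (SE 0.30, 95% interval -1.44 to -0.10, limma adjusted p = 0.662). With array spread in the fit the difference was -0.41, and leaving out single arrays gave -0.984 to -0.647.

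S1pr5, the receptor known for the exit of natural killer cells from marrow, read 6.51, 6.27 and 6.48 in Zeb2-KO arrays and 6.83, 6.83 and 6.85 in WT arrays. The WT arrays lay almost on 1 value, above all Zeb2-KO arrays, and the difference was -0.42 (95% interval -1.0 to 0.17). S1pr4, a receptor of blood and lymphoid cells, lay at -0.50, and at -0.173 without WT replicate 1, where it read highest (8.23). With array spread in the fit S1pr5 lay at -0.329 and S1pr4 at -0.0393. S1pr2 lay at -0.18 and S1pr3 at -0.16, and at 0.0249 and 0.132 with array spread in the fit. S1pr3 turned to 0.0627 or 0.0826 when WT replicate 1 or Zeb2-KO replicate 3 was left out. The median of the 5 genes was -0.42 without array spread in the fit.

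The 3 receptors for prostaglandin E2, a lipid known to act on stem cell number, split by gene. Ptger3, whose receptor couples to inhibitory G proteins, read 6.77, 7.50 and 7.73 in Zeb2-KO arrays and 6.56, 7.01 and 6.29 in WT arrays. Zeb2-KO replicate 1 lay below WT replicate 2, so the groups overlapped, and the difference was 0.72 (95% interval -0.03 to 1.47, limma adjusted p = 0.673). Ptger4, whose receptor raises cyclic AMP, lay at 0.37 with overlap. Ptger2, which also encodes a receptor that raises cyclic AMP, read 4.94, 4.75 and 4.91 in Zeb2-KO arrays and 5.48, 5.11 and 5.29 in WT arrays, without overlap (difference -0.43, 95% interval -1.03 to 0.17). The Ptger3 difference was 0.33 with array spread in the fit. The 1 adrenergic member, Adra2c, an alpha-2 receptor for noradrenaline, lay lower without overlap at 5.51 ± 0.19 in Zeb2-KO and 5.95 ± 0.13 in WT (SD, n = 3 each), a difference of -0.43.

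Of 36 numbered Gpr genes, 31 lay lower and 5 higher, with a median of -0.31 and a range of -0.59 to 0.54. Over all probe sets 55.4% lay lower. The median mean level of these genes was 6.00 log2, and dim probe sets lay lower over the whole array, as described below. Gpr55, a lysophosphatidylinositol receptor, read 5.91, 5.47 and 5.68 in Zeb2-KO arrays and 6.33, 6.19 and 6.32 in WT arrays. Gpr63, an orphan receptor gene, read 5.23, 4.91 and 5.15 in Zeb2-KO arrays and 5.73, 5.63 and 5.53 in WT arrays. Gpr183, the oxysterol receptor that positions B cells and dendritic cells, read 6.61, 7.08 and 7.03 in Zeb2-KO arrays and 7.61, 7.22 and 7.45 in WT arrays. In these 3 genes the groups did not overlap, and the differences were -0.59, -0.54 and -0.52, each with a 95% interval that includes 0. Gpr183 kept its size with array spread in the fit (-0.57), whereas Gpr55 lay at -0.40.

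Gpr18, near Gpr183 on chromosome 14 and likewise known from lymphocytes, read 8.55, 7.50 and 7.78 in Zeb2-KO arrays and 8.17, 7.85 and 7.80 in WT arrays. Its difference of 0.0037 had an interval from -0.73 to 0.74, took the other sign with quantile normalization and array centring (-0.195 and -0.0138), and was -0.302 when Zeb2-KO replicate 1 was left out, -0.0428 when WT replicate 2 was and -0.066 when WT replicate 3 was. Gpr65, an acid-sensing receptor gene of leukocytes, ranged widely within both groups, at 5.79, 7.54 and 7.46 in Zeb2-KO arrays and 7.71, 8.02 and 5.94 in WT arrays. Its difference was -0.29, and it turned to 0.275 or 0.104 when Zeb2-KO replicate 1 or WT replicate 2 was left out. Gpr18 lay at 0.457 and Gpr65 at -1.05 with array spread in the fit. Gpr89 lay at 0.54 through Zeb2-KO replicate 2 (8.20, the other arrays between 5.89 and 6.61) and at -0.109 without it, and at -0.312 with array spread in the fit.

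Gpr174, a lysophosphatidylserine receptor gene, neighbours P2ry10 on the X chromosome, and both lay at -0.27. Gpr174 lay at -0.13 with array spread in the fit. Gpr62 lay at -0.51, Gpr35 at -0.35 and Gpr31b at -0.33, with -0.33 in its other probe set as well. These genes lay at -0.141, -0.000856 and 0.0672 with array spread in the fit. Without WT replicate 1, Gpr35 lay at -0.168 and Gpr31b at -0.0994. The remaining 26 numbered genes, including the pseudogene Gpr137b-ps, lay between -0.46 (Gpr15) and 0.14 (Gpr52), with unadjusted p from 0.158 to 0.949 in limma and overlap between the groups in all 26.

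**Figure D2:**
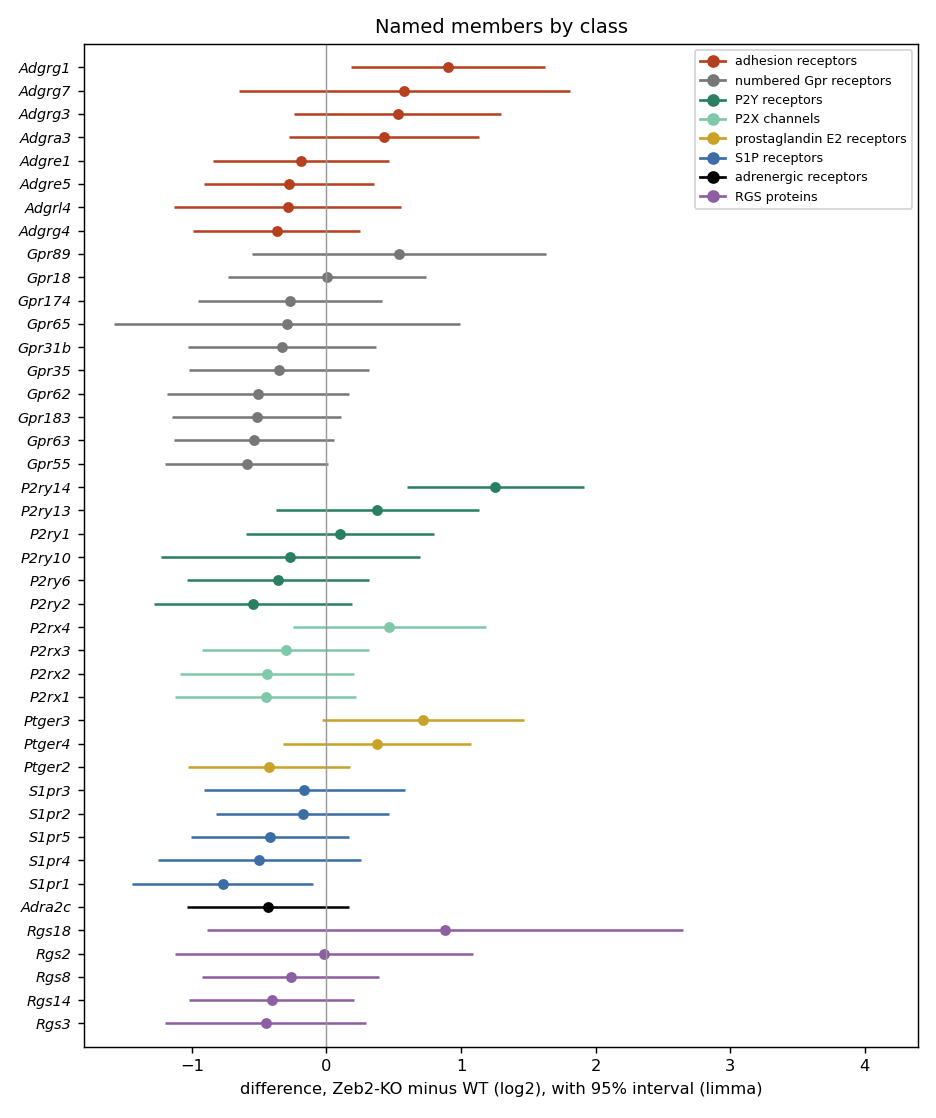
Difference of Zeb2-KO minus WT (log2) for the 42 named members, grouped and coloured by class, with 95% intervals from limma. The intervals of P2ry14, Adgrg1 and S1pr1 exclude 0 and the others include it, and Rgs18 has the widest interval (-0.89 to 2.65).

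Of 5 RGS genes, Rgs18 lay higher and the others lower. Rgs18, known from megakaryocytes, platelets and stem cells, read 8.89, 9.66 and 8.29 in Zeb2-KO arrays and 5.87, 9.94 and 8.39 in WT arrays. WT replicate 1 stood far below every other array, and WT replicate 2 was the highest of all. The difference of 0.88 (95% interval -0.89 to 2.65) was -0.218 without WT replicate 1, 1.82 without WT replicate 2 and -0.493 with array spread in the fit. Rgs2, which acts on the Gq class of alpha subunits, had the same low array, with 8.42, 9.26 and 9.04 in Zeb2-KO arrays and 7.71, 9.97 and 9.09 in WT arrays. Its difference was -0.018. It was -0.626 when WT replicate 1 was left out, and above 0 when Zeb2-KO replicate 1 (0.225), WT replicate 2 (0.504) or WT replicate 3 (0.0673) was. Array spread in the fit gave -0.92.

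Rgs14, which also binds Ras-family proteins, read 7.10, 6.65 and 6.66 in Zeb2-KO arrays and 7.22, 7.30 and 7.11 in WT arrays. The groups were apart by a narrow gap, and the difference was -0.41 (95% interval -1.02 to 0.21). Rgs3 lay at -0.45 and at -0.161 without WT replicate 1, where it read highest (7.96). Rgs8, known from brain, lay at -0.27. With array spread in the fit Rgs3 lay at -0.0243 and Rgs8 at 0.0196.

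Genes downstream of the receptors were read from lists of the same pathway. Of 48 measured genes in 6 lists, 34 lay higher and 14 lower, with a median of 0.20. Over all probe sets 6514 of 14610 lay higher, with a median of -0.089. The pathway genes were read only without array spread in the fit. None passed an adjusted p of 0.05. At an unadjusted p under 0.05, 5 lay higher (10.4%, against 5.69% of all probe sets) and 1 lower (2.08%, against 1.33%). Their probe sets gave more signal, with a median mean level of 7.10 log2 against 6.30 for the members, and brighter probe sets lay higher over the whole array, as described below. Adcy6, an adenylyl cyclase that makes cyclic AMP, read 7.60, 7.79 and 7.75 in Zeb2-KO arrays and 6.83, 7.0 and 6.62 in WT arrays, a difference of 0.90 (SE 0.27, limma adjusted p = 0.606) without overlap. Prkcb, the protein kinase C beta gene used in B cell receptor signalling, read 7.57, 7.0 and 7.34 in Zeb2-KO arrays and 8.35, 7.89 and 8.46 in WT arrays, a difference of -0.93 (SE 0.30, limma adjusted p = 0.620) without overlap.

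By list, the G protein alpha subunits had 6 of 7 genes higher and a median of 0.057, and Gna15, the blood cell alpha subunit of the Gq class, lay at 0.62. The beta and gamma subunits had 6 of 10 higher and a median of 0.052, with none at an unadjusted p under 0.05. Receptor kinases and the arrestins of Arrb1 and Arrb2 switch off active receptors, and their list also holds the arrestin-domain genes Arrdc1, Arrdc3 and Arrdc4. Of these, 4 of 6 lay higher, namely Arrb2 (0.65), Grk5 (0.36), Arrdc3 (0.76) and Arrdc1 (0.59), whereas Arrb1 lay at -0.29 and Arrdc4 at -0.053. The cyclic AMP list had 9 of 14 higher, the phospholipase C and calcium list 5 of 7, and the small GTPase list all 4, with the exchange factor gene Arhgef12 at 0.78.

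The direction of a member went with its signal. Members were sorted by mean log2 into 4 bins, each with the same number of all tested probe sets. In the dimmest bin 25 of 27 members lay lower (92.6%), where 80.8% of all probe sets of that bin did, with medians of -0.30 and -0.26. In the brightest bin 3 of 8 members lay lower (37.5%, all probe sets 27.1%), with medians of 0.19 and 0.27. In the second bin 15 of 20 lay lower (75.0%, all probe sets 67.9%). The third bin was where members and array differed most, with 14 of 19 members lower (73.7%) and 45.8% of all probe sets, and medians of -0.33 and 0.067.

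**Figure D3:**
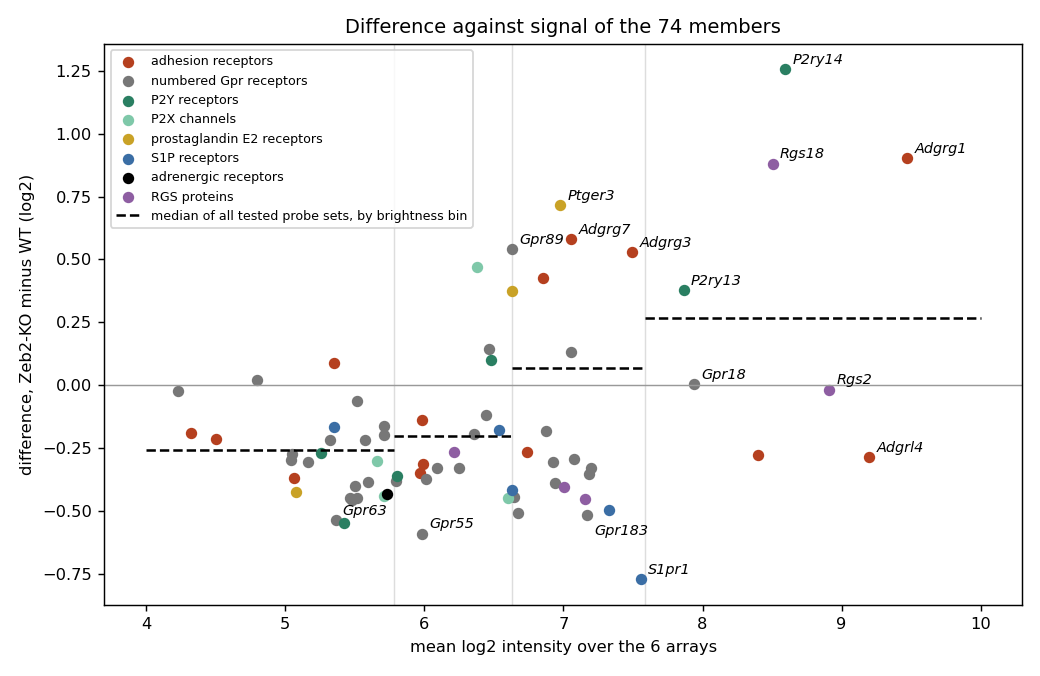
Difference of Zeb2-KO minus WT (log2) against mean log2 intensity for the 74 members, coloured by class, with dashed lines at the median of all tested probe sets in each brightness bin, -0.26, -0.20, 0.067 and 0.27 from dim to bright. Most dim members lie below 0, and P2ry14, Adgrg1 and Rgs18 stand out on the bright side.

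The arrays differ in spread, which moves with this pattern. The interquartile range of log2 values was 1.83, 2.40 and 2.11 in Zeb2-KO arrays and 1.59, 2.03 and 1.77 in WT arrays. The mean of the members in the 2 dimmer bins was 5.78, 5.44 and 5.52 in Zeb2-KO arrays and 6.03, 5.69 and 5.72 in WT arrays, and that of the brightest bin was 8.62, 8.91 and 8.84 in Zeb2-KO arrays and 7.99, 8.91 and 8.40 in WT arrays. With array spread in the fit 44 of 74 members lay lower, where 51.0% of all probe sets did, and in the dimmest bin 16 of 27. In the third bin 14 of 19 lay lower in that fit, not all of them the same genes, since Gpr31b (0.0672) and Adgrg7 (-0.59) changed sides, and the median was -0.037 (all probe sets 50.7%, median -0.0041). That fit has 1 covariate and 6 arrays, and the part of the array spread in each single difference was not tested. At each replicate number the interquartile range was wider in the Zeb2-KO array than in the WT array. It was taken from the same tested probe sets. A spread that goes with the group and a technical one cannot be told apart in that fit.

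**Figure D4:**
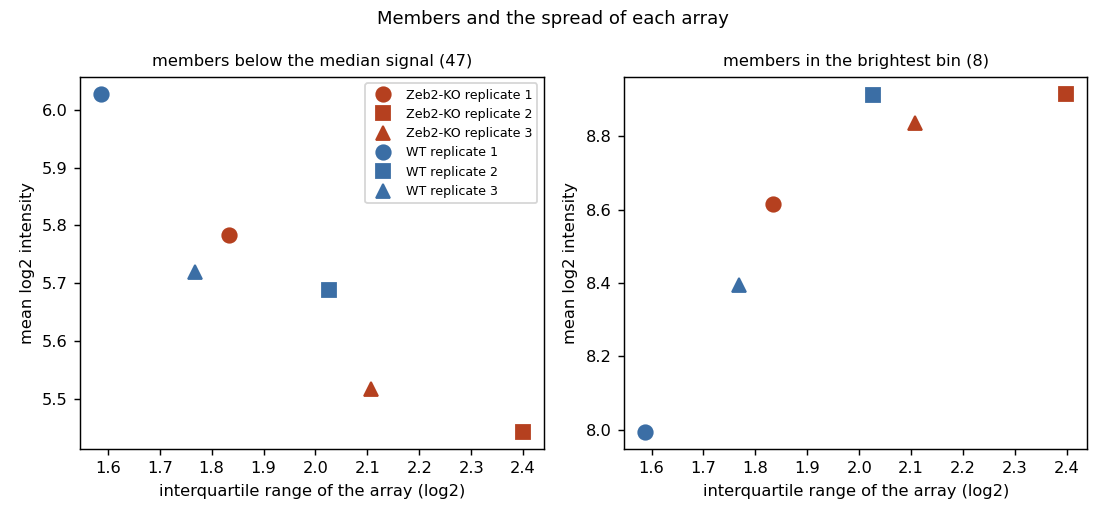
Mean log2 intensity of the 47 members below the median signal (left) and of the 8 members in the brightest bin (right), against the interquartile range of each array (log2), with Zeb2-KO in red and WT in blue. WT replicate 1 has the narrowest range (1.59), the highest dim mean (6.03) and the lowest bright mean (7.99), and Zeb2-KO replicate 2 has the widest range (2.40) and the lowest dim mean (5.44).

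Counted by separation of the groups, 10 of 74 members (13.5%) had all Zeb2-KO values below all WT values, where 6.26% of all probe sets did, and 2 (2.70%) had them all above, where 6.9% of all did. The lower ones were S1pr1, S1pr5, Gpr55, Gpr63, Gpr183, Ptger2, Adra2c, P2rx2, Rgs14 and Adgrd2-ps. Of these 10, 7 lie in the 2 dimmer bins, which hold 27 and 20 of the 74 members. From dim to bright, the bins had 4 of 27, 3 of 20, 3 of 19 and 0 of 8 members apart lower. Over all probe sets these counts were 392 of 3653, 266 of 3652, 162 of 3652 and 95 of 3653. Without Zeb2-KO replicate 1 the lower count was 40 members (28.4% of all probe sets) and the higher count 8 (16.7%). Without WT replicate 2 or WT replicate 3 the lower count was 19 in each case (19.3% and 10.5% of all probe sets). With 2 arrays in a group separation is easier, which the shares over all probe sets also show.

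Levels of markers of other cells were read beside the members, and none of them passed an adjusted p of 0.05. The summed intensity of 10 measured of 12 listed B cell markers was 1029 to 1703 in Zeb2-KO arrays and 1830 to 3478 in WT arrays, with all 10 lower. That of 10 of 12 monocyte, macrophage and dendritic cell markers was 1654 to 2485 in Zeb2-KO arrays and 2331 to 3848 in WT arrays, again all 10 lower. H2-Ab1 and Cd74 were the brightest of these and weighed most in the sums. Cd74, H2-Eb1 and Ctss lay lower without overlap, whereas H2-Ab1, Irf8, Ly86, Cx3cr1, Itgax, Siglech and Mpeg1 overlapped. The summed intensity of 8 of 15 megakaryocyte and platelet markers was 3124 to 5808 in Zeb2-KO arrays and 1136 to 1986 in WT arrays, with 7 of 8 higher. Erythroid markers, 6 of 12 listed, were all higher as well, with sums of 3087 to 3492 in Zeb2-KO arrays and 1010 to 1416 in WT arrays. Car2 was the brightest of them on every array and weighed most in the sums. It read 11.34, 11.22 and 11.08 in Zeb2-KO arrays and 8.63, 9.94 and 9.91 in WT arrays. Klf1 and Tfrc also lay higher without overlap, whereas Car1, Alas2 and Aqp1 overlapped. Stromal and endothelial markers, 6 of 10 listed, were all lower, with sums of 591 to 732 in Zeb2-KO arrays and 806 to 1107 in WT arrays. The granulocyte list (5 of 10 measured, sums of 413 to 1406 in Zeb2-KO arrays and 320 to 374 in WT arrays) and the T and NK cell list (5 of 10, sums of 275 to 629 in Zeb2-KO arrays and 241 to 317 in WT arrays) each had 3 genes higher and 2 lower. The 10 measured of 12 stem cell markers summed to 4692 to 5421 in Zeb2-KO arrays and 2854 to 5078 in WT arrays, with WT replicate 1 lowest. Of these genes 5 lay higher and 5 lower, with a median of 0.067. Kit and Meis1 were the brightest of them and weighed most in the sums. Procr (-0.45) and Hoxb4 (-0.38) lay lower without overlap, and 4 genes lay higher without overlap. No marker read 0, since RMA values do not reach it. Of the members known from lymphocytes, S1pr1, S1pr4, Gpr183 and Gpr174 lay below 0 with and without array spread in the fit, and the B cell markers, read only without it, lay below 0 as well. Of all 74 members, 57 lay below 0 without array spread in the fit and 44 with it. With array spread in the fit S1pr4 lay close to 0, at -0.0393. P2ry10 lay below 0 without array spread and above 0 with it, and Gpr18 lay close to 0 without array spread and at 0.457 with it. Of those known from platelets, P2rx1 lay below 0, opposite to the platelet markers, while Rgs18 and P2ry1 had no stable direction. Adgrl4, known from endothelium, lay below 0, as the stromal and endothelial markers did, but not without WT replicate 2 or with array weights. The part of these cells in the receptor differences was not tested, and fewer cells of a type and less RNA per cell cannot be told apart.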

How the data were processed

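RNA from the sorted cells was amplified, biotin-labelled and put on Affymetrix arrays, per the labels' protocols. The deposited intensity values are 1 per probe set and array, made by the authors with RMA, per the submitters' processing notes. RMA usually yields log2 values, but the range shows a linear scale, so log2 was taken. Neither its version nor a later scaling step is named there. Median intensities ran from 94.3 to 99.2.

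Of 20220 probe sets, 5610 whose identifiers lie before the first annotated one were left out, and 14610 were tested, 11229 with 1 gene symbol, 766 with several and 2615 with none. Names came from the platform annotation, updated by gene identifier through RefSeq GRCm38.p6 (11184 found). Groups came from the titles.

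The 2 groups were compared with limma 3.58.1 in R 4.3.3 (lmFit, eBayes, degrees of freedom 4 residual, 6.87 prior), and p was adjusted by Benjamini-Hochberg across every tested probe set. Intervals are limma's. The number of arrays limits the precision. Members and gene lists were chosen with earlier results of these data known. Named members are, in each class, the 4 with the smallest p and the 3 brightest, the 6 largest differences each way, and a fixed set, 42 in all. Other members and the pathway genes were named after their values were seen. The limma procedure was tested on simulated data with independent noise in each value. That simulation did not model arrays of unlike spread or correlated arrays, so it does not check the procedure there. Alternatives were quantile normalization, centring, a dim filter, other priors, array weights (whose estimation stopped before convergence), a replicate block, array spread as covariate, the control block, probe set and symbol choice, a pseudocount of 16, and each array left out.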

Additional observations from a re-analysis of the deposited data

How the results depend on the processing

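No member passed the adjusted threshold under any alternative except array weights, with 3 members called (P2ry14 at 1.37, adjusted p = 0.0149; Ptger3 at 1.21, adjusted p = 0.0264; S1pr1 at -0.987, adjusted p = 0.0279), where 978 of all probe sets passed. Members higher at an unadjusted p under 0.05 numbered 6 with array weights, 4 with the replicate block and 1 with array spread in the fit, and 1 to 4 with 1 array left out (main count 2). Members lower numbered 13 with array weights, 14 with the replicate block, 3 with quantile normalization, 2 with a trended prior, 2 with log2 of the value plus 16 and 0 with array spread in the fit, and 0 to 3 with 1 array left out (main count 1). For all probe sets the replicate block gave 9.69% higher and 8.07% lower at that p, and array weights 17.2% and 15.6%. Array spread in the fit gave 2.51% higher and 2.63% lower. The lower share was 1.88% with quantile normalization, 1.7% with a trended prior and 1.31% with log2 of the value plus 16. With 1 array left out, 2.86% to 9.14% of all probe sets lay higher and 0.815% to 2.92% lower. The labels do not say whether the replicate numbers pair the samples, so the main fit has no block. Deviations of same-numbered arrays correlated at 0.360, 0.414 and 0.0468, and those of unlike numbers at -0.375 to 0.0301. Each array correlated best with its own number. Members without overlap numbered 5 of the 27 left by the dim filter, 2 higher and 3 lower. Of all probe sets left by that filter, 10.4% lay apart higher and 3.52% lower. With 1 array left out, members without overlap numbered 13 to 48 (main count 12). The count of 48 was that without Zeb2-KO replicate 1, where 16.7% of all probe sets lay apart higher and 28.4% lower. The median difference was -0.0382 with array spread in the fit and -0.378 to -0.169 with 1 array left out.

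Of 42 named members, 27 kept their sign in all settings. With array spread in the fit the sign changed in Adgrg7 (-0.59), Adgre1 (0.154), Gpr89 (-0.312), Gpr31b (0.0672), P2ry10 (0.365), Rgs18 (-0.493), Rgs8 (0.0196), S1pr2 (0.0249) and S1pr3 (0.132). With array weights it changed in Adgre5 (0.000636), Adgrl4 (0.458), Gpr65 (0.771), Gpr18 (-0.0759) and P2ry1 (-0.168). Gpr18 also changed with quantile normalization (-0.195) and centring (-0.0138). With 1 array left out the ranges that cross 0 were -0.0843 to 1.04 (Adgrg7), -0.597 to 0.00866 (Adgrl4), -0.109 to 1.05 (Gpr89), -0.934 to 0.275 (Gpr65), -0.302 to 0.228 (Gpr18), -0.636 to 0.183 (P2ry10), -0.118 to 0.289 (P2ry1), -0.218 to 1.82 (Rgs18), -0.626 to 0.504 (Rgs2) and -0.39 to 0.0826 (S1pr3). The cause was not tested. The signal of dim probe sets lies near the array's floor, which limits what their differences can show.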
